A study of Mus musculus with 12 samples.

Results

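The Lrrc32 locus was examined in ATAC-seq peak lists of 12 libraries of mouse splenic CD4+ T cells. Its elements were all the peaks on chromosome 7 between 105.56 and 105.8 Mb (genome build NCBIM37), merged where they overlapped. The 34 peaks in this window merged into 10 elements, of 40457 merged regions in the whole genome. Of the 10 elements, 8 had a peak in at least 2 libraries, the minimum for the genome-wide comparisons, which covered 32787 regions. The KO groups, KO Treg and KO Tconv, came from mice without an enhancer 70 kb from Lrrc32, and WT Treg and WT Tconv from wild-type mice. Mice of both genotypes carried a Foxp3-IRES-EGFP reporter, so that EGFP marks cells expressing Foxp3, the lineage-defining transcription factor of regulatory T cells. Each group had 3 libraries, each made from 100000 sorted cells: EGFP-positive regulatory T cells (Treg) or EGFP-negative conventional T cells (Tconv). Strain, age and sex of the mice, whether each library was a separate mouse, and the ends of the deletion are not given in the labels.

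Lrrc32 encodes GARP, a transmembrane protein with leucine-rich repeats that binds latent TGF-beta on the surface of activated Treg and of platelets. Integrins then release active TGF-beta from this complex. ATAC-seq marks DNA open enough for the Tn5 transposase to insert sequencing adapters, as promoters and enhancers in use tend to be. Distal enhancers can act over long distances on the promoter they serve. In the reference gene order (GRCm38.p6, used for names alone), the nearest protein-coding genes are Gucy2d on one side of Lrrc32 and Emsy on the other.

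Distances were counted from 105.638 Mb, taken as the approximate start of Lrrc32 and not checked against an annotation of this build, to the centre of each element. Elements are called by that distance. The element at +0.231 kb, called the promoter element for its position near the approximate start of Lrrc32, ran from 105637431 to 105639031. Its neighbour at +2.49 kb ran from 105640277 to 105640698. The element at +24.0 kb ran from 105661791 to 105662145, the one at +45.3 kb from 105682634 to 105683904 and the one at +67.6 kb from 105705321 to 105705931. The element at +73.4 kb ran from 105710837 to 105711903, the one at +91.0 kb from 105728635 to 105729408 and the one at +96.8 kb from 105734587 to 105735112. The remaining 2 elements had a peak in a single library each. One lay at -8.25 kb (105629633 to 105629867) in WT Treg replicate 1, and the other at +43.7 kb (105681671 to 105681826) in WT Treg replicate 2.

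The libraries had lists of 21269 to 27605 peaks, apart from KO Treg replicate 2 with 5262. Read depth is not stated, so the length of a list stands in for the yield of its library. A peak is listed only where its −log10 p reached about 5, and a region just under that limit reads as absent. KO Treg replicate 2 had no peak in the window. A set of 1301 Treg-restricted regions, called in each WT Treg library and in none of the Tconv libraries, served for comparison with the locus. In this set KO Treg replicate 2 lacked a peak in 96.8%, against 13.1% in KO Treg replicate 1 and 12.1% in KO Treg replicate 3. Presence at Lrrc32 in KO Treg therefore rests on the other 2 KO Treg libraries. The tests, the calls and their shares over all regions still include KO Treg replicate 2, unless it is said to be left out. It counts there as an absence at every Lrrc32 element. Without KO Treg replicate 2, the counts of Treg-enriched and of lost elements given in what follows were the same, 4 and 4. The rules fix this outcome, since that library had no peak in the window. Cells were not checked against marker genes, since no annotation of NCBIM37 was used here.

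All 34 peaks of the Lrrc32 window came from Treg libraries. KO Treg libraries had peaks at 4, 0 and 4 elements in order of replicate, and WT Treg libraries at 9, 9 and 8. The WT Treg mean was 8.67 ± 0.577 (SD, n = 3). Every KO Tconv and every WT Tconv library had 0 elements. The WT Treg counts include the 2 elements called in a single library each, and elements that may lie inside the deletion. How often other windows differ so between the genotypes was not counted. Peaks covered 1950, 0 and 997 bp of the window in KO Treg, against 4184, 5733 and 3505 bp in WT Treg. In bulk libraries, fewer cells with an open site and less opening per cell cannot be told apart.

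**Figure D1:**
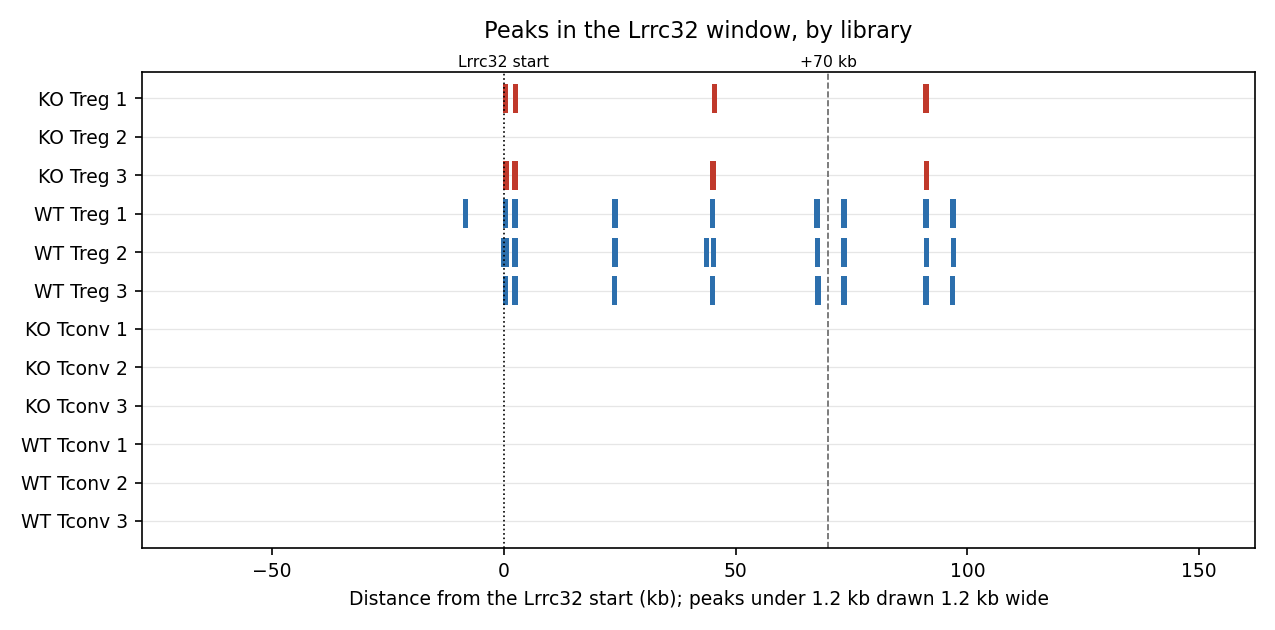
Peaks in the Lrrc32 window by library, with the distance from the approximate Lrrc32 start in kb on the x axis and 1 row per library. Narrow peaks are drawn at a fixed minimum width. Peaks appear in Treg rows alone, at 4 positions in KO Treg replicates 1 and 3 and at 8 or 9 in each WT Treg library.

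The promoter element and 3 other elements had peaks called in Treg of both genotypes. At +0.231, +2.49, +45.3 and +91.0 kb, a peak was called in KO Treg replicates 1 and 3 and in all 3 WT Treg libraries, but in none of the 6 Tconv libraries. These 4 of the 8 elements met the rule for Treg enrichment, an excess of at least 5 Treg libraries over Tconv libraries, which 3.2% of all 32787 regions met. The other 4 elements had a peak in 3 Treg libraries and no Tconv library. The Treg minus Tconv difference of 5 libraries gave p = 0.0152 by Fisher's exact test (two-sided, 6 against 6 libraries) and p = 0.224 after Benjamini-Hochberg adjustment over all regions. Fisher's exact test left 0 regions of the genome after that adjustment, with a smallest adjusted p of 0.123, while 2213 regions had an unadjusted p under 0.05. The smallest unadjusted p that 6 against 6 libraries allow is 0.00216. Adjusted over the 5679 regions present in 5 to 7 libraries, which alone can reach an unadjusted p under 0.05, the 4 elements had a Fisher's exact test adjusted p of 0.0389. This set of regions was picked with the data already seen, so with all libraries in, whether the call passes rests on the choice of regions adjusted over. KO Treg replicate 2 entered these tests as a library without a peak at the 4 elements. The tests were not repeated without it. Where peaks had to cover 50% of an element, 0 elements were Treg-enriched, and with the 5262 top peaks of every list 0 were as well. The share of all regions that met the rule was 6.21% without KO Treg replicate 2 and 6.44% to 7.04% without any one Tconv library. It was 3.59% to 3.95% without any one of the other Treg libraries. Fewer libraries then have to differ, so elements with an excess of 5 libraries must meet the rule again, as the 4 did each time.

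The promoter element was weak in every library that had it. Strength is given as the percentile of a peak's −log10 p among all peaks of its own list, which places a peak within its library. Lists differ in length, so percentiles of different lists set side by side do not show a change. The promoter peak stood at percentiles of 14.3 and 23.1 in KO Treg replicates 1 and 3, against 19.7, 6.06 and 6.92 in WT Treg. In each of these 5 lists it was the weakest of the 4 elements found in both genotypes. Its fold enrichment, the authors' own value for the peak against its background, was 4.21 and 4.19 in the KO Treg libraries and 3.51, 2.99 and 3.51 in the WT Treg libraries. Peak width was 272 and 189 bp in KO Treg and 292, 1601 and 299 bp in WT Treg. The long peak of WT Treg replicate 2 set the outer borders of the element. It alone covered the position taken as the start of Lrrc32. All 5 libraries shared 127 bp, from 105638350 to 105638476.

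The element at +2.49 kb was stronger than the promoter element in each of the 5 lists. Its peaks stood at percentiles of 38.8 and 39.5 in KO Treg, against 69.2, 49.0 and 47.3 in WT Treg, and the 5 peaks shared 146 bp. Fold enrichment was 5.15 and 4.77 in KO Treg and 5.62, 4.16 and 4.84 in WT Treg. Whether it lies in an exon or an intron of Lrrc32 was not determined.

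The element at +45.3 kb had peaks at percentiles of 27.3 and 44.2 in KO Treg and 63.5, 25.4 and 34.9 in WT Treg. Here the ranges of the genotypes overlapped, and WT Treg libraries differed among themselves by more than the KO Treg libraries did. A peak of 946 bp in KO Treg replicate 1 and one of 1208 bp in WT Treg replicate 2 were the longest of the 5, the others being 366 to 422 bp. The 5 peaks shared 260 bp, from 105682959 to 105683218.

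The element at +91.0 kb, on the far side of the deleted enhancer as seen from Lrrc32, kept its peak in KO Treg by the rule that any overlap counts. Where peaks had to cover 50% of the element, it had a peak in 3 fewer KO than WT Treg libraries and was called lost. Percentiles were 55.5 and 35.2 in KO Treg, against 37.1, 49.4 and 66.4 in WT Treg. Fold enrichment was 6.93 and 5.62 in KO Treg and 5.26, 5.65 and 7.02 in WT Treg, with overlapping ranges. The peaks were 355 and 280 bp long in KO Treg and 774, 486 and 504 bp in WT Treg. How many other regions had shorter peaks in KO Treg was not counted, so these lengths do not show a narrowing particular to this element.

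The elements at +24.0, +67.6, +73.4 and +96.8 kb were called in each WT Treg library and in no KO Treg library. A region that meets this rule is called lost in KO Treg. These 4 of the 8 elements compare with 0.973% of all 32787 regions and 4.69% of the 1301 Treg-restricted regions, to which all 8 elements belong. In that set, 79.6% of regions had a peak in both KO Treg replicates 1 and 3, as 4 of the 8 Lrrc32 elements did. No Lrrc32 element was gained in KO Treg (the reverse rule), a call that 0.0305% of all regions met. That call needs a peak in KO Treg replicate 2, and without this library 1.08% of regions were gained and 0.977% lost, with 0 and 4 Lrrc32 elements. The share lost was 2.51% without KO Treg replicate 1 and 3.12% without KO Treg replicate 3. It was 1.89% without WT Treg replicate 1, 1.39% without WT Treg replicate 2 and 3.005% without WT Treg replicate 3. The 4 elements were lost each time, which the rule ensures for elements lost with all libraries in. In Tconv, 0 elements were lost or gained, since no Tconv library of either genotype had a peak there, against 0.189% and 0.793% of all regions. With 3 libraries against 3, Fisher's exact test of presence cannot go below p = 0.1, so presence was not tested between genotypes within Treg. With stricter peaks (−log10 q of at least 5), 2 elements were still called lost, those at +24.0 and +73.4 kb. Over both cell types, 6 KO against 6 WT libraries, the lost elements gave p = 0.182 by Fisher's exact test and p = 1 after Benjamini-Hochberg adjustment. A peak in 3 of 12 libraries can give no smaller p there.

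The element at +73.4 kb is the closest to the position of the deleted enhancer apart from the weak one at +67.6 kb. DNA removed by the deletion gives no reads, so a missing KO peak inside the deletion follows from the genotype itself. The peak stood at percentiles of 59.1, 48.0 and 52.6 in WT Treg replicates 1 to 3, with fold enrichments of 5.96, 4.93 and 5.62. Its percentile averaged 53.2 ± 5.57 (SD, n = 3), the smallest SD among the 5 strongest elements. It was also broad: the WT Treg peaks were 1047, 991 and 1010 bp long. Of the 1301 Treg-restricted regions, whose mean peak length had a median of 403 bp, 34 (2.61%) had longer peaks.

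The borders of the +73.4 kb element were nearly the same in all 3 WT Treg libraries. Starts differed by at most 46 bp and ends by at most 76 bp, and the 3 peaks shared 945 bp, from 105710883 to 105711827. The shared part made up 88.6% of the length that any of the 3 covered, against a median of 49.3% in the 1301 regions, of which 18 (1.38%) had a higher share. At the promoter element the share was 15.3%, at +2.49 kb 81.4%, at +45.3 kb 33.2% and at +91.0 kb 62.8%.

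**Figure D2:**
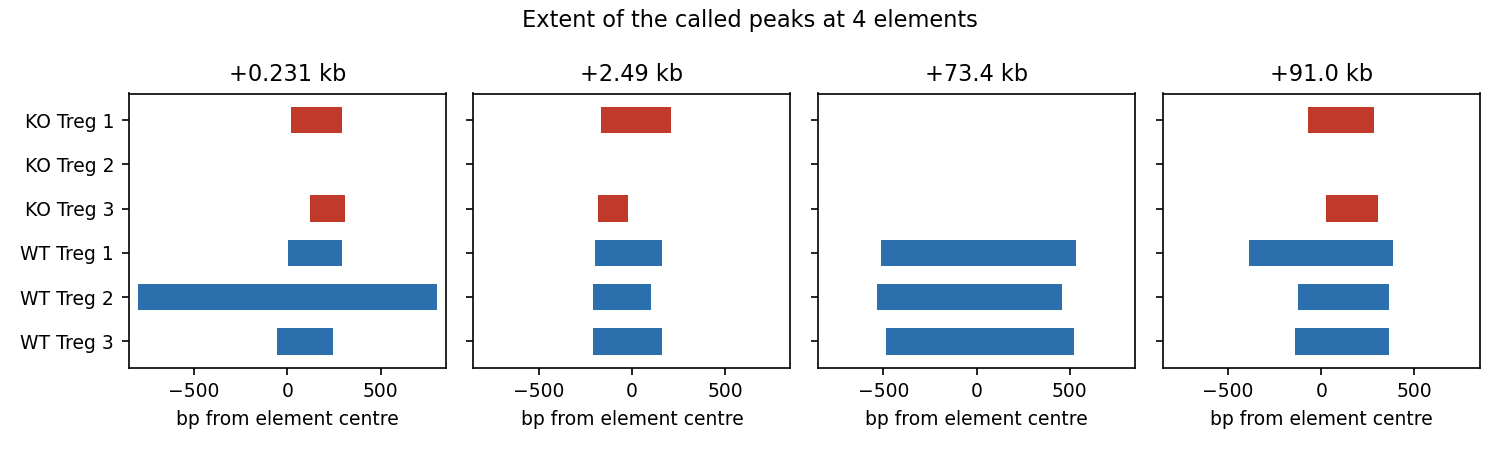
Extent of the called peaks at the elements at +0.231, +2.49, +73.4 and +91.0 kb, with bp from the element's centre on the x axis and 1 row per Treg library (KO red, WT blue). The +73.4 kb element has 3 WT peaks of 991 to 1047 bp with nearly equal borders and no KO peak.

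The other lost elements had narrower peaks and a lower mean WT Treg percentile of −log10 p. At +24.0 kb, WT Treg peaks stood at percentiles of 26.5, 49.7 and 31.1, with widths of 221, 293 and 235 bp. Their fold enrichments were 5.13, 6.51 and 5.74, against 5.96, 4.93 and 5.62 at +73.4 kb. At +96.8 kb the WT Treg peaks stood at percentiles of 20.2, 29.1 and 7.13. At +67.6 kb they stood at 11.2, 3.79 and 4.34, close to the calling limit, and the 3 peaks shared 21 bp of an element 611 bp wide. Around the enhancer position, no KO Treg library had a peak over 45.0 kb, from 105683905 to 105728951. This stretch held 2 WT elements whole, and WT Treg peaks of the +91.0 kb element reached into its far end. How often other stretches of this length lack a KO Treg peak was not counted. The elements at +24.0 and +96.8 kb lie outside the stretch, each beyond an element that kept its peak.

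In order of mean WT Treg percentile, the elements were those at +2.49 kb (55.2 ± 12.2), +73.4 kb (53.2 ± 5.57), +91.0 kb (51.0 ± 14.7), +45.3 kb (41.2 ± 19.9), +24.0 kb (35.8 ± 12.3), +96.8 kb (18.8 ± 11.1), +0.231 kb (10.9 ± 7.64) and +67.6 kb (6.43 ± 4.11; SD, n = 3 each). Each overlapped the next in its range over the 3 libraries. Down to the +24.0 kb element, neighbours in this order changed places between libraries. From there on the order was the same within all 3: +24.0 kb above +96.8 kb, then the promoter element, then +67.6 kb. Lost and kept elements were mixed along the order: the second strongest was lost, and the second weakest, the promoter element, was kept.

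**Figure D3:**
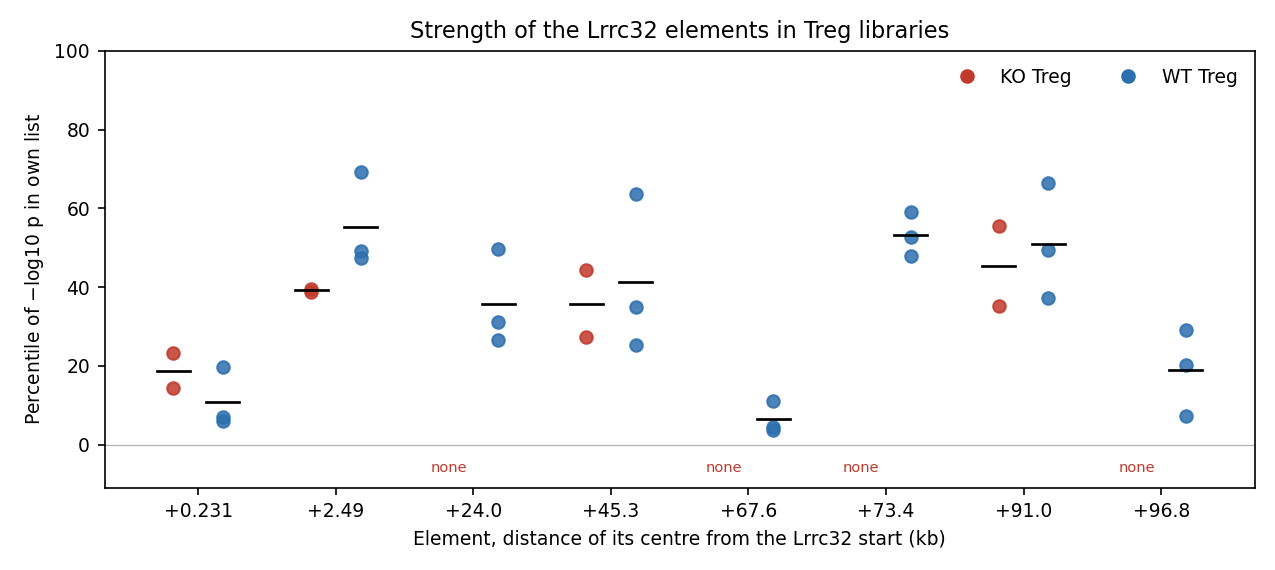
Percentile of each element's peak within its own list, for KO Treg (red) and WT Treg (blue) libraries, with points for libraries and black lines for means. "None" marks the 4 elements without a KO Treg peak, which include the +73.4 kb element at WT percentiles of 48.0 to 59.1.

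Weak regions are missed more often than strong ones in any list, so each element was set beside regions of like strength. The 1301 Treg-restricted regions were divided into 10 equal classes by mean WT Treg percentile. The +73.4 kb element fell in class 9, with percentiles of 47.1 to 56.8, where KO Treg replicate 1 had a peak in 95.4% of regions and replicate 3 in 96.9%. In this class 3 of 130 regions (2.31%) were lost, the +73.4 kb element among them. The Lrrc32 elements at +2.49 and +91.0 kb, in the same class, were kept. The +24.0 kb element was the single lost region of class 7 (0.769% of 130). The +45.3 kb element, which was kept, was in class 8, where 1.54% were lost. The +96.8 kb element was in class 3, where 7.69% were lost, and the +67.6 kb element in class 1, where 14.6% were. These shares, too, count the lost element itself. The promoter element was also in class 1, in which 55.4% of regions had a peak in both KO Treg replicates 1 and 3.

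**Figure D4:**
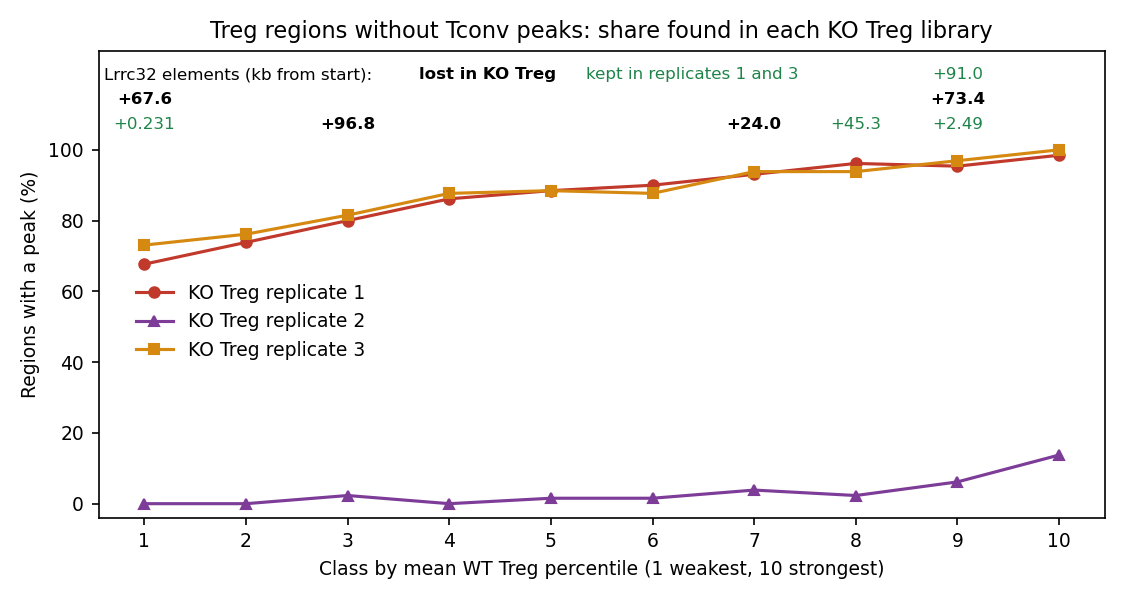
Share of regions with a peak in each KO Treg library (y axis, %), for the 1301 Treg-restricted regions, in 10 classes of WT Treg strength (x axis). Numbers above the lines place the Lrrc32 elements, by distance in kb, with lost ones in bold. Replicates 1 and 3 found 95.4% and 96.9% of regions in the class of the +73.4 kb element.

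Among all 319 regions lost in KO Treg, the +73.4 kb element ranked 4 by mean WT Treg percentile, against a median of 21.4. The +24.0 kb element ranked 43, the +96.8 kb element 184 and the +67.6 kb element 306. The pattern of these elements over the 12 libraries, a peak in all 3 WT Treg and in none of the other 9, was shared by 61 regions in all (0.186% of 32787). The +73.4 kb element was the highest of the 61 by mean WT Treg percentile, and the median was 17.0. The next outside the locus, alike in all 12 libraries, was a region of chromosome 18 from 67600873 to 67601157 (49.8 ± 6.76). Then came those of chromosome 5 from 147669282 to 147669654 (47.1 ± 5.41) and from 23809089 to 23809318 (45.8 ± 17.5; SD, n = 3 each). They were followed by a region of chromosome 9 from 123953782 to 123954114 (41.7 ± 4.18) and one of chromosome 10 from 6829656 to 6830122 (33.3 ± 5.68). These 5 were 230 to 467 bp wide, against 1067 bp for the +73.4 kb element. No 240 kb outside the Lrrc32 window held more than 2 of the 61 regions, against 4 in it. The elements at +73.4 and +67.6 kb may lie inside the deletion, where no KO peak is possible. The ranks and counts given here may then include losses fixed by the genotype.

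The locus was dense in Treg elements. When the genome was divided into windows of 240 kb with the Lrrc32 window as one of them, 5864 windows held a region, with a median of 5. Regions called in each WT Treg and no WT Tconv library were found in 1351 windows, and the Lrrc32 window was the single one with as many as 8. Of 234 windows in which regions were present but no Tconv library had a peak, the others had at most 7 regions. Lost regions numbered 4 here and at most 3 in any other window. These counts are descriptions, since the window was drawn around a gene already known to differ.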

How the data were processed

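Each library has its own deposited list of broad peaks, taken here under the sample the deposit assigns it to. The names of the peaks number the libraries in a second order, and nothing says which is the original. Per the submitters' processing notes, the tools were Bowtie2, Trim Galore 0.4.4, DESeq2, DiffBind and MACS2 (their roles are not stated) and the genome was NCBIM37. For every peak, the authors deposited a score, a fold ratio, a −log10 q and a −log10 p. The lists hold no counts, so DESeq2 was not run here. Control, read filters and cut-site shift are not stated.

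Peaks that overlapped or touched in any of the 12 lists were joined, and a library had a region when any of its peaks lay in it. Coordinates are 1-based. Presence was compared with two-sided Fisher's exact tests, adjusted by Benjamini-Hochberg over all regions in at least 2 libraries. The tests and rules were first run on simulated data in which every Treg library found Treg-enriched regions equally well. The data differ from this at KO Treg replicate 2, so that run does not show how the rules behave here. The tests treat the 12 libraries as independent and take no measure of the spread between them, which may be technical. Whether Treg and Tconv libraries of one number share a mouse is not known. The window, elements and rules were chosen with earlier results of these data known. Elements in at least 3 libraries are named in full, and the 5 outside regions are those alike in all 12 libraries with the highest mean WT Treg percentile. The planned marker check and promoter motif search were not run. Alternatives were stricter peaks, equal list lengths, 50% coverage, joining across 200 bp, other rankings, a replicate block and leaving out each library. Software was matplotlib 3.10.9, scipy 1.17.1, pandas 2.3.3 and numpy 2.4.6 under Python 3.11.15.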

Additional observations from a re-analysis of the deposited data

How the results depend on the processing

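With peaks of −log10 q of at least 5, the lost elements numbered 2, at +24.0 and +73.4 kb, and the Treg-enriched elements 3. With the 5262 top peaks of every list both counts were 0, since no Lrrc32 peak ranks that high. With 21269 top peaks and KO Treg replicate 2 left out, both were 3. At 50% coverage of an element the Treg-enriched count was 0. The lost count stayed at 4 there, but with the +91.0 kb element in (KO minus WT difference of -3 libraries) and the +67.6 kb element out (-2). At the promoter element the KO minus WT Treg difference, -1 library, was 1 with stricter peaks and 1 with 21269 top peaks and KO Treg replicate 2 left out. When single libraries were left out, the counts ran from 4 to 4 for Treg-enriched and from 4 to 4 for lost elements, with the threshold lowered to 4 libraries where 5 were left. The rules fix these counts, which are therefore no check on the calls. A lost element stays lost whichever library is dropped, and an excess of 5 libraries stays at 4 or more. Gained elements in Treg, and lost or gained ones in Tconv, numbered 0 in every setting. With the replicate number as a block, 0 elements had an exact McNemar p under 0.05, the 4 Treg-enriched ones having 0.0625, the smallest that 5 differing pairs allow. Presence in same-numbered Treg and Tconv libraries deviated together with correlations of 0.0152 to 0.0608 in WT and -0.0283 to 0.00841 in KO. Differently numbered ones gave -0.0425 to 0.0165 in WT and -0.0299 to 0.0300 in KO. Values this small cannot settle whether same-numbered libraries share a mouse or a batch. The cause of the other changes was not tested. Unknown read depth limits every absence to "not called".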

Other observations

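Ranking by fold enrichment in place of −log10 p changed which elements stood out within the WT Treg lists. The +91.0 kb element then had the highest mean percentile, 53.1, followed by the lost element at +24.0 kb (48.8), ahead of +45.3 kb (43.8) and the lost element at +73.4 kb (42.9). The element at +2.49 kb, first by −log10 p, had 26.8, and the promoter element 1.52.

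Outside the window, the nearest region with a Tconv peak below the locus lay at -141 kb (105496686 to 105497009), with a peak in 1 WT Tconv library alone. Above it, the nearest lay at +167 kb (105804143 to 105805662), just outside the limit of the window, with a peak in all 12 libraries and a median percentile of 80.6. The outermost element inside that limit, at +96.8 kb, had 20.2.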
